A study of Rattus norvegicus with 42 samples.

Results

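The circadian clock genes described here are the REV-ERB repressors Nr1d1 and Nr1d2, the period genes Per1, Per2 and Per3, the output genes Dbp and Tef, and the opposing arm of Arntl, Npas2 and Cry1. They were chosen by symbol, with earlier results of these data known, and all 10 were found among the 30045 gene symbols of each of the 2 count tables. All 10 passed the filter on low counts at both time points. Lung RNA came from 42 male Fischer rats of the inbred strain F344/DuCrl, bought at 3 months of age. The rats ate a high-fat diet with 60% of energy as fat or a regular diet with 18%, from 2 weeks before exposure until their tissues were taken. They breathed crystalline silica at 15 mg/m3 by whole-body inhalation for 6 hours a day on 5 days, or air, and were sampled 3 or 9 months later. The groups were, at 3 months, high-fat diet with silica (n = 5), high-fat diet with air (n = 5), regular diet with silica (n = 5) and regular diet with air (n = 4), and at 9 months the same 4 groups with 6, 6, 5 and 6 rats. Each library was made from a piece of whole lung of 1 rat. The labels mention a light-dark schedule and give no hour of tissue collection, so each rat contributes 1 unstated point of its daily cycle. Whether the groups were collected at matched hours is not stated either. The part of the collection hour in the diet and silica differences below was not tested.

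The mammalian clock is a feedback loop. The protein of Arntl (BMAL1) pairs with CLOCK or NPAS2, binds E-box motifs and switches on the period and cryptochrome genes, the REV-ERB genes and the output genes. PER and CRY proteins then inhibit that pair, and the REV-ERB proteins bind ROR elements and repress Arntl, Npas2 and Cry1. The levels of the repressor and output genes and those of Arntl and Npas2 therefore peak at opposite times of day in most rodent tissues, the lung among them, where the clock is known for rhythms in airway and immune cells. Feeding and glucocorticoid hormones are known to set the phase of clocks outside the brain.

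Library totals ran from 5143424 to 8259635 counts at 3 months and from 3078216 to 8319382 at 9 months. Levels are given in CPM, the count relative to the TMM-scaled library size, and differences as log2 fold changes with their standard error. Lung markers were high in every library, with surfactant protein C (Sftpc) at 5076 CPM or more. Heart muscle genes varied from rat to rat within groups, with Myh6 between 1 and 1132 counts at 3 months and between 6 and 2449 at 9 months. The brown fat gene Ucp1 had at most 1 count in any library. The ribosomal RNA share (counts on Rnr1 and Rnr2) was 0.776 to 1.45% with the high-fat diet and silica, 0.605 to 1.24% with the high-fat diet and air, 0.635 to 1.43% with the regular diet and silica and 0.988 to 1.66% with the regular diet and air at 3 months. At 9 months these shares were 7.29 to 7.85%, 4.62 to 7.19%, 2.60 to 5.35% and 0.375 to 2.29% in the same order. They did not overlap between the diets under either exposure, nor between silica and air on either diet. In whole tissue, fewer cells of a type and less RNA per cell cannot be told apart.

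Promoter windows of RefSeq (rat assembly GRCr8, 250 bases before to 50 after an annotated start) were found for 9 of the 10 genes, 10 windows in all. Cry1 is named only. The windows were searched on both strands for the E-box CACGTG, its variant CACGTT, the D-box TTATGTAA or TTACGTAA that DBP and TEF bind, and the ROR/REV-ERB core TAGGTCA or TGGGTCA. Among all 33469 rat windows of this length these motifs were present in 6.42%, 4.83%, 1.01% and 6.60%. The windows of Nr1d2, Per1, Per3, Dbp and Npas2 held none of these letters, and no match overlapped another. The 5 windows with a match are shown because they place the letters of both arms of the loop side by side, with the matches in capitals.
Nr1d1, chr10:84229405-84229704, minus strand: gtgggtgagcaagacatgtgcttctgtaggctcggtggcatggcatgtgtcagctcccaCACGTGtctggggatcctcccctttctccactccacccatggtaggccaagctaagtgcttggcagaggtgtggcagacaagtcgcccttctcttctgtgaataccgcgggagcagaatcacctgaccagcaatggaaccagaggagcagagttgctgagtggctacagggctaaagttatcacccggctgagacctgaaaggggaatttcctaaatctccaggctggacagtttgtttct
Nr1d1, second start, chr10:84231763-84232062, minus strand: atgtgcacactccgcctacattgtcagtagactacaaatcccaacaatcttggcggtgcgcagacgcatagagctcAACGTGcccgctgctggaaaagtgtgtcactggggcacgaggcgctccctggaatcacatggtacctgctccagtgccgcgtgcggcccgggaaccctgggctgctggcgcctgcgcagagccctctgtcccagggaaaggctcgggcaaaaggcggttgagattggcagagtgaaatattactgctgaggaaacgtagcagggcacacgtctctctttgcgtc
Tef, chr7:115206577-115206876, plus strand: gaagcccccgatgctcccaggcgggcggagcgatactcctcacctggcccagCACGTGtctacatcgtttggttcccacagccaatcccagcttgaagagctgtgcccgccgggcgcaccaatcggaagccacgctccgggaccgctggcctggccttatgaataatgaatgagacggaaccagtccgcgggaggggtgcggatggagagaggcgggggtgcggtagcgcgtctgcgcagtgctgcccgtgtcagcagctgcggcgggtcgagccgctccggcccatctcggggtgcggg
Per2, chr9:99496944-99497243, minus strand: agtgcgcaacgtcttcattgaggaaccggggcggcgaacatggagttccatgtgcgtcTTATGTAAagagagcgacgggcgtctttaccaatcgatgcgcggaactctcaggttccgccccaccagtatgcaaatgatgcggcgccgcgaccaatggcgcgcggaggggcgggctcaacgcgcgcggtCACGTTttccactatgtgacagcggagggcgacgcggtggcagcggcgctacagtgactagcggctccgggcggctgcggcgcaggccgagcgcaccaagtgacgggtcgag
Arntl (RefSeq symbol Bmal1), chr1:176766078-176766377, plus strand: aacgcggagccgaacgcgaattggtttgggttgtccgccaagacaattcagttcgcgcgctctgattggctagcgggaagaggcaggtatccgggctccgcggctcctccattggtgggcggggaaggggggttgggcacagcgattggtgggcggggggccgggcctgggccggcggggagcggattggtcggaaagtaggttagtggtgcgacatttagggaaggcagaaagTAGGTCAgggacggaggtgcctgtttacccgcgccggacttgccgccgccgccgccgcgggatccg
The first Nr1d1 window and the Tef window held the E-box, at bases 60 to 65 and 53 to 58 of the window. The second Nr1d1 window held the variant on the other strand (printed as AACGTG, bases 77 to 82). Per2 held a D-box at bases 59 to 66 and the variant at bases 189 to 194. Arntl held the ROR/REV-ERB core at bases 235 to 241. These are matches of letters in a fixed window, and binding was not measured.

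In air at 3 months the high-fat diet went with more RNA of both REV-ERB genes, Per3 and Tef. Called higher at an adjusted p below 0.05 were 4 of the 10 genes, against 1.65% of the 15234 genes tested, and none was called lower (edgeR; 2 were lower at an unadjusted p below 0.05 and 0 by DESeq2), against 1.30% of all genes. With silica at 3 months, high-fat rats had 6 genes called higher, against 0.295% of all genes, and Arntl and Npas2 called lower, against 0.407%. At 9 months the diet difference was called for 4 genes higher in air (8.16% of the 15276 genes tested) and 1 lower (7.07%), and for 5 genes higher with silica (1.82%) and none lower (1.70%; edgeR, with 3 lower at an unadjusted p below 0.05 and 0 by DESeq2). Nr1d1, Nr1d2 and Per3 were called higher in all 4 diet comparisons, which share no rats between air and silica or between 3 and 9 months. The median log2 fold change of the 7 repressor and output genes was 1.24 with silica and 0.94 in air at 3 months, and 0.59 and 0.52 at 9 months. For the 3 opposing genes it was -0.62, -0.41, -0.17 and -0.18, while the median over all genes tested stayed within 0.015 of 0 in each of the 4.

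Nr1d1 encodes REV-ERB alpha, a heme-binding nuclear receptor that represses Arntl. Values per rat are listed in the order of the animal tags. With silica at 3 months its level was 49.8, 58.6, 70.5, 90.0 and 60.6 CPM in the high-fat rats, against 17.9, 18.1, 27.3, 8.70 and 13.0 CPM in the regular-diet rats. In air it was 39.6, 52.2, 47.0, 37.4 and 36.7 CPM in the high-fat rats, against 14.9, 7.16, 8.24 and 7.67 CPM in the regular-diet rats. Every high-fat rat lay above every regular-diet rat of the same exposure, and the lowest high-fat value of the time point (36.7 CPM) was above the highest regular-diet value (27.3 CPM). The log2 fold change was 1.92 ± 0.20 (adjusted p = 2.6e-05) with silica and 2.19 ± 0.26 (adjusted p = 1.7e-04) in air, and by p Nr1d1 ranked 2 and 3 among the 15234 genes. In mean level the 3-month groups stood in the order high-fat silica (65.9 ± 15.4 CPM), high-fat air (42.6 ± 6.74 CPM), regular silica (17.0 ± 6.97 CPM) and regular air (9.49 ± 3.62 CPM; SD, n = 5, 5, 5 and 4).

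The same separation was present at 9 months. With silica the Nr1d1 level ran from 29.6 to 57.5 with a median of 40.9 CPM in 6 high-fat rats, against 11.6, 10.5, 8.39, 13.1 and 14.5 CPM in 5 regular-diet rats. In air it ran from 24.7 to 46.9 with a median of 37.5 CPM in 6 high-fat rats, against 6.03 to 13.2 with a median of 8.10 CPM in 6 regular-diet rats. No high-fat rat fell into the regular-diet range, and the 2 high-fat groups overlapped widely, as did the 2 regular-diet groups. The log2 fold change was 1.85 ± 0.20 (adjusted p = 3.4e-06) with silica and 2.09 ± 0.19 (adjusted p = 3.7e-07) in air. The means were 41.8 ± 10.7 and 37.8 ± 8.40 CPM in high-fat silica and air rats, and 11.6 ± 2.34 and 8.90 ± 2.73 CPM in regular-diet silica and air rats, and neighbours that share a diet did not pass the test. Nr1d1 kept its diet call in each fit that left out 1 rat, with log2 fold changes between 1.77 and 2.17 with silica and between 2.07 and 2.47 in air at 3 months, and between 1.73 and 1.94 and between 1.996 and 2.21 at 9 months. When the ribosomal RNA share entered the model as a term, the 9-month values were 1.68 (adjusted p = 0.54) with silica and 1.88 (adjusted p = 0.49) in air. In that fit 1 gene of all those tested was called for diet under each exposure and none of the 10 clock genes (edgeR; DESeq2 was not run with it), so at 9 months diet and ribosomal RNA share cannot be told apart. At 3 months, where the shares overlapped, Nr1d1 with that covariate was 1.85 (adjusted p = 1.0e-04) with silica and 2.28 (adjusted p = 4.1e-04) in air.

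In RefSeq, Nr1d1 overlaps the thyroid hormone receptor gene Thra, which lies on the opposite strand. The strand setting of the counting is not given in the sources used here, so reads of the shared stretch could be assigned to either gene. Thra was looked up after the Nr1d1 values were seen. Its diet log2 fold change was -0.01 ± 0.08 (adjusted p = 0.97) with silica and 0.10 ± 0.09 (adjusted p = 0.55) in air at 3 months, and 0.22 ± 0.08 (adjusted p = 0.13) and 0.11 ± 0.07 (adjusted p = 0.32) at 9 months. Thra was not called in any of the 4 diet comparisons. Its silica log2 fold change was -0.31 ± 0.08 (adjusted p = 0.012) on the high-fat diet and -0.19 ± 0.09 (adjusted p = 0.14) on the regular diet at 3 months, and -0.38 ± 0.07 (adjusted p = 1.4e-04) and -0.48 ± 0.08 (adjusted p = 1.7e-05) at 9 months. Thra was thus called lower with silica in all but the regular diet at 3 months. Per2, Npas2 and Cry1 each overlap uncharacterised RNA genes in RefSeq whose symbols the count tables do not list.

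Nr1d2 encodes REV-ERB beta, the close relative of REV-ERB alpha. With silica at 3 months its level was 103, 136.7, 141.05, 192 and 111.5 CPM in high-fat rats, against 54.1, 76.3, 63.6, 40.0 and 54.3 CPM in regular-diet rats. In air it was 109.02, 116.3, 118.4, 84.3 and 101 CPM in high-fat rats, against 57.9, 44.8, 53.1 and 51.6 CPM in regular-diet rats. At 9 months it ran from 51.3 to 81.3 with a median of 69.3 CPM in high-fat silica rats, against 45.0, 37.6, 46.3, 50.4 and 45.0 CPM in regular-diet silica rats, and from 73.5 to 89.0 with a median of 78.5 CPM in high-fat air rats, against 39.5 to 51.5 with a median of 42.6 CPM in regular-diet air rats. The diet groups did not overlap in any of the 4 comparisons, and the narrowest gap was with silica at 9 months. The diet log2 fold changes were 1.24 ± 0.15 (adjusted p = 1.1e-04) and 1.03 ± 0.17 (adjusted p = 0.0055) with silica and air at 3 months, and 0.59 ± 0.09 (adjusted p = 0.0011) and 0.86 ± 0.09 (adjusted p = 8.4e-07) at 9 months.

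**Figure D1:**
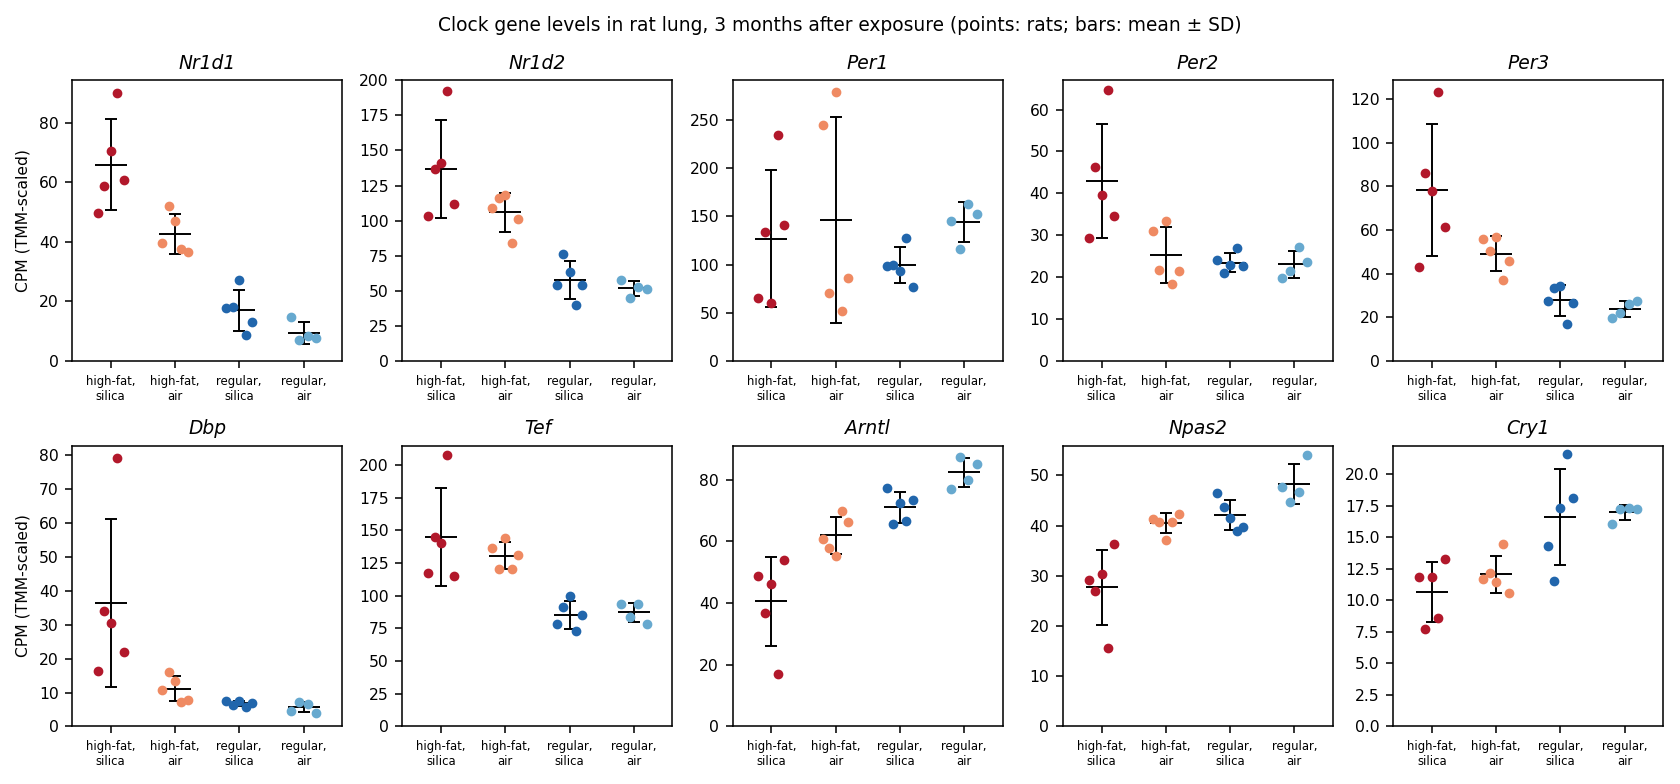
Level of each clock gene at 3 months in CPM (vertical axes, linear, 1 panel a gene), with 1 point per rat and the mean ± SD as bars, for high-fat silica, high-fat air, regular silica and regular air rats from left to right. Nr1d1 in the 10 high-fat rats sits between 36.7 and 90.0 CPM, above all 9 regular-diet rats, while Arntl and Npas2 are lowest in high-fat silica rats.

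The 3 period genes, whose proteins inhibit the BMAL1 complex together with the cryptochromes, did not move alike. Per3 with silica at 3 months was 43.0, 86.1, 77.8, 123.3 and 61.2 CPM in high-fat rats, against 27.4, 33.5, 34.4, 17.1 and 26.5 CPM in regular-diet rats, a log2 fold change of 1.47 ± 0.21 (adjusted p = 6.6e-04). In air Per3 was 56.1, 50.4, 56.7, 37.0 and 45.7 CPM in high-fat rats, against 19.9, 21.9, 26.3 and 27.6 CPM in regular-diet rats, a log2 fold change of 1.03 ± 0.24 (adjusted p = 0.027). The groups did not overlap under either exposure, but the air call was lost in 6 of the fits that left out 1 rat (rats 50 and 52 of the high-fat group, and each regular-diet air rat). At 9 months the Per3 log2 fold change was 0.77 ± 0.12 (adjusted p = 0.0011) with silica and 0.60 ± 0.11 (adjusted p = 8.6e-04) in air. Per3 ran from 38.2 to 49.1 with a median of 45.8 CPM in high-fat air rats, against 24.0 to 36.4 with a median of 29.5 CPM in regular-diet air rats, without overlap. With silica it ran from 31.1 to 51.1 with a median of 45.7 CPM in high-fat rats, against 31.9, 23.4, 22.2, 24.1 and 22.0 CPM in regular-diet rats, where the lowest high-fat rat lay just below the highest regular-diet rat.

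Per2 was called for diet only with silica at 3 months. There it was 29.5, 46.3, 39.7, 64.7 and 34.7 CPM in high-fat rats, against 24.2, 20.9, 22.9, 26.9 and 22.6 CPM in regular-diet rats, a log2 fold change of 0.86 ± 0.17 (adjusted p = 0.017) without overlap. Leaving out rat 63 of the high-fat silica group ended that call, with 0.84 (adjusted p = 0.056). In air the log2 fold change was 0.13 ± 0.20 (adjusted p = 0.77), and at 9 months 0.24 ± 0.11 (adjusted p = 0.26) with silica and -0.07 ± 0.11 (adjusted p = 0.71) in air.

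Per1, which responds quickly to glucocorticoids as well as to the clock, was not called in any diet comparison, with log2 fold changes between -0.56 and 0.35. In high-fat air rats at 3 months its spread was the widest of the 10 genes, with an SD of 1.09 in log2 CPM. Per1 was 244, 70.8, 279, 52.2 and 85.5 CPM in the 5 high-fat air rats (rats 50, 51, 52, 57 and 58), against 145, 115.6, 163 and 153 CPM in regular-diet air rats. Rats 50 and 52 stood apart from the other 3 high-fat air rats. The summed level of 7 glucocorticoid-induced genes (Fkbp5, Tsc22d3, Zbtb16, Sgk1, Klf9, Errfi1 and Ddit4) was 1375 and 1167 CPM in those 2 rats and 585, 830 and 718 CPM in the other 3. In high-fat silica rats Per1 was 65.7, 134.04, 60.0, 234 and 140.9 CPM, against 98.7, 99.96, 93.5, 127.9 and 76.2 CPM in regular-diet silica rats. None of these 7 genes was called for diet at 3 months under either exposure (edgeR; 0 at an unadjusted p below 0.05 and 0 by DESeq2). At 9 months 3 of the 7 were called lower in high-fat silica than in regular-diet silica rats and 2 lower in high-fat air than in regular-diet air rats. The immediate early genes Fos, Fosb, Egr1, Junb, Ier2, Nr4a1 and Atf3 gave no call in the 4 diet comparisons (edgeR; 0 to 3 higher at an unadjusted p below 0.05, and 1 by DESeq2 with silica at 3 months). The part of either list in the Per1 values was not tested.

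Dbp and Tef encode PAR bZIP transcription factors that activate D-box genes. With silica at 3 months Dbp was 16.4, 34.1, 30.5, 79.1 and 21.8 CPM in high-fat rats, against 7.64, 6.32, 7.42, 5.69 and 7.04 CPM in regular-diet rats. The lowest high-fat rat was above the highest regular-diet rat, and rat 66, at 79.1 CPM, was higher than any other rat of the time point. The log2 fold change was 2.38 ± 0.34 (adjusted p = 7.3e-04), and without rat 66 it was 1.92 (adjusted p = 1.0e-04). In air Dbp was 10.9, 15.9, 13.5, 7.31 and 7.87 CPM in high-fat rats, against 4.64, 7.32, 6.70 and 4.09 CPM in regular-diet rats, a log2 fold change of 0.94 ± 0.47 (adjusted p = 0.26) with overlapping groups. At 9 months it was 0.80 ± 0.18 (adjusted p = 0.014) with silica and 0.52 ± 0.18 (adjusted p = 0.0501) in air.

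Tef at 3 months with silica was 117.3, 145, 140.1, 208 and 115.3 CPM in high-fat rats, against 78.3, 91.2, 99.6, 72.7 and 84.9 CPM in regular-diet rats. In air it was 136.1, 120.2, 144, 120.2 and 131.2 CPM in high-fat rats, against 93.3, 83.6, 93.4 and 78.2 CPM in regular-diet rats. The groups did not overlap, and the log2 fold changes were 0.76 ± 0.12 (adjusted p = 0.0024) with silica and 0.58 ± 0.13 (adjusted p = 0.022) in air. The air call was lost without rat 40, 42 or 52 and with the ribosomal RNA term. At 9 months the Tef change was smaller, at 0.28 ± 0.06 (adjusted p = 0.012) with silica, where groups again did not overlap but a fit of the pair of groups alone gave no call, and 0.10 ± 0.06 (adjusted p = 0.23) in air.

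**Figure D2:**
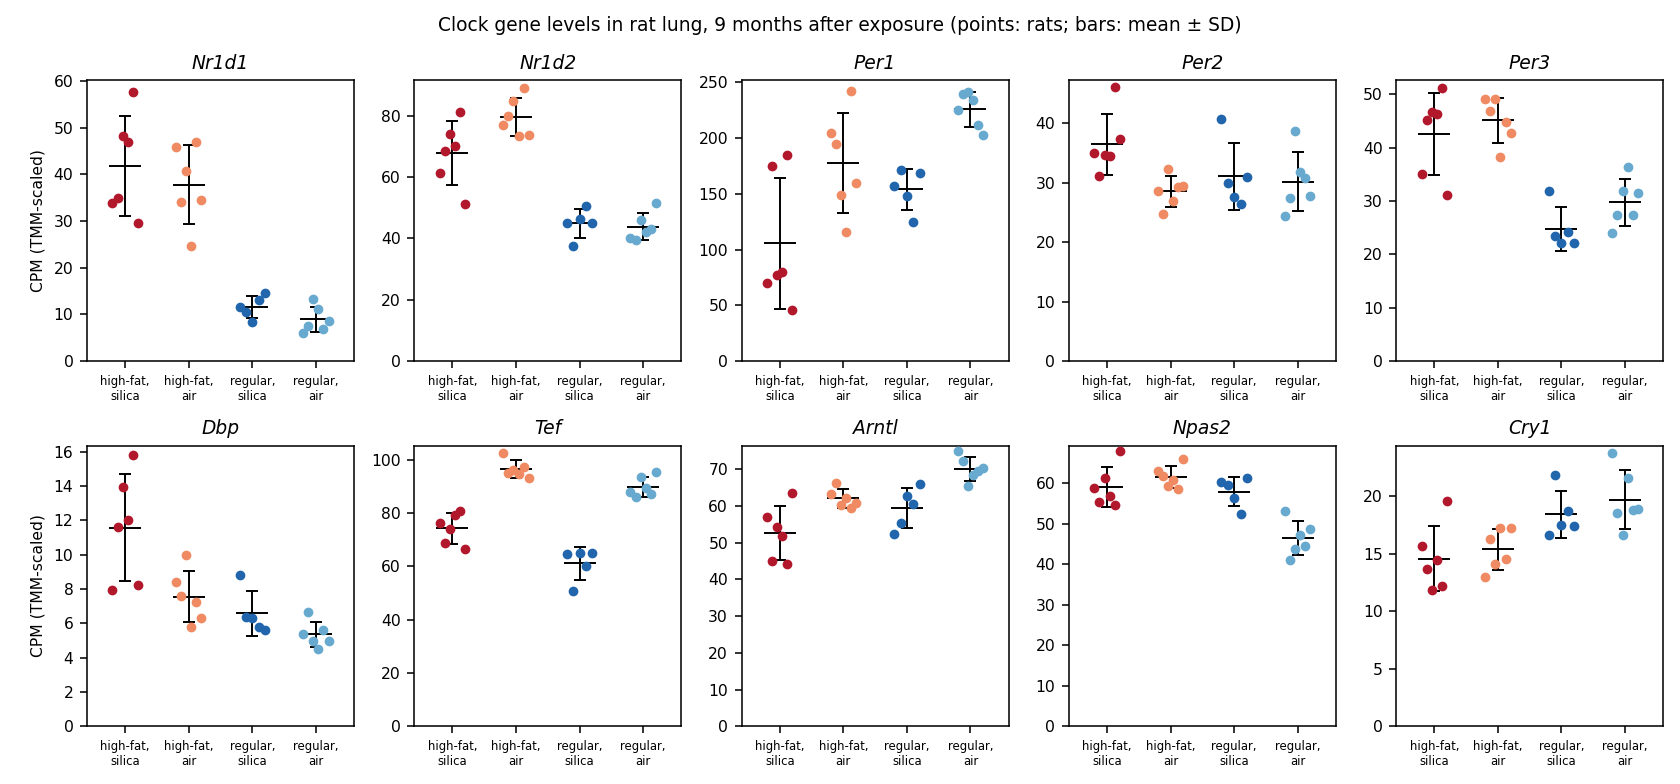
Level of each clock gene at 9 months in CPM (vertical axes, linear, 1 panel a gene), with 1 point per rat and the mean ± SD as bars, for high-fat silica, high-fat air, regular silica and regular air rats from left to right. Nr1d1 is separated by diet, with high-fat rats from 24.7 to 57.5 CPM and regular-diet rats from 6.03 to 14.5 CPM, and Tef is lower with silica than with air on both diets.

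The opposing arm was lower in high-fat rats at 3 months, past the test for Arntl and Npas2 with silica. Arntl, which encodes the BMAL1 activator, was 48.7, 36.9, 46.2, 17.0 and 53.8 CPM in high-fat silica rats, against 77.2, 65.4, 72.4, 66.6 and 73.3 CPM in regular-diet silica rats, a log2 fold change of -0.79 ± 0.16 (adjusted p = 0.017). In air it was 60.7, 57.8, 55.2, 69.7 and 66.1 CPM in high-fat rats, against 77.1, 87.5, 79.8 and 85.0 CPM in regular-diet rats, and -0.41 ± 0.16 (adjusted p = 0.15). High-fat rats lay below regular-diet rats without overlap under both exposures, and the test passed only with silica. Without rat 66, whose 17.0 CPM was the lowest Arntl level of the time point, the log2 fold change with silica was -0.61 (adjusted p = 0.001). Without rat 63 it was -0.76 (adjusted p = 0.059), and a fit of the pair of groups alone gave -0.79 (adjusted p = 0.094). At 9 months Arntl was not called for diet, at -0.17 ± 0.07 (adjusted p = 0.24) with silica and -0.18 ± 0.07 (adjusted p = 0.086) in air.

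Npas2, a partner of BMAL1 that can stand in for CLOCK, was 29.1, 27.0, 30.4, 15.7 and 36.3 CPM in high-fat silica rats at 3 months, against 46.5, 43.7, 41.6, 39.0 and 39.8 CPM in regular-diet silica rats. The log2 fold change was -0.59 ± 0.12 (adjusted p = 0.02), -0.58 (adjusted p = 0.066) without rat 63, -0.55 (adjusted p = 0.055) without rat 43 and -0.59 (adjusted p = 0.11) in a fit of the pair of groups alone. In air at 3 months it was -0.25 ± 0.13 (adjusted p = 0.25), again with no overlap and with the high-fat rats lower. At 9 months in air the sign was the other one. Npas2 ran from 58.5 to 66.1 with a median of 61.4 CPM in high-fat rats, against 41.1 to 53.1 with a median of 46.0 CPM in regular-diet rats, a log2 fold change of 0.40 ± 0.06 (adjusted p = 8.9e-05) without overlap. With silica at 9 months it was 0.03 ± 0.06 (adjusted p = 0.84).

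Cry1 encodes a cryptochrome, a repressor by function whose gene is regulated with the opposing arm through REV-ERB. At 3 months it was 11.8, 7.76, 11.8, 8.57 and 13.3 CPM in high-fat silica rats, against 14.3, 11.5, 17.3, 21.6 and 18.1 CPM in regular-diet silica rats, and 11.7, 12.2, 11.5, 14.5 and 10.5 CPM in high-fat air rats, against 16.03, 17.3, 17.3 and 17.2 CPM in regular-diet air rats. The log2 fold changes were -0.62 ± 0.15 (adjusted p = 0.053) with silica and -0.49 ± 0.16 (adjusted p = 0.09) in air. In air the groups did not overlap, and with silica they did. The silica value was past the threshold with DESeq2, without the filter on low counts and with the heart muscle genes as a covariate. At 9 months Cry1 was called lower with the high-fat diet in air, at -0.37 ± 0.11 (adjusted p = 0.023), and not with silica, at -0.32 ± 0.12 (adjusted p = 0.14). That air call was lost with either covariate and without the first regular-diet air rat or the first, the third or the fifth high-fat air rat in tag order.

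Between the diets at 3 months, the genes without overlap in air were Nr1d1, Nr1d2, Per3 and Tef above (5.32% of all genes lay above without overlap) and Arntl, Npas2 and Cry1 below (4.64% lay below). With silica they were Nr1d1, Nr1d2, Per2, Per3, Dbp and Tef above (0.965%) and Arntl and Npas2 below (1.23%). At 9 months they were Nr1d1, Nr1d2, Per3 and Npas2 above in air (3.37%) and Nr1d1, Nr1d2 and Tef above with silica (1.80%).

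Cell markers were counted beside these diet comparisons. Of the alveolar macrophage genes Marco, Fabp4, Mrc1, Itgax and Cd68, 2 of the 4 tested were lower with the high-fat diet in each 3-month comparison, and 3 of 5 in air and 1 of 5 with silica at 9 months. Their summed level at 3 months was 385 to 476 CPM in high-fat silica rats, against 474 to 783 CPM in regular-diet silica rats, and 272 to 324 CPM in high-fat air rats, against 337 to 427 CPM in regular-diet air rats. At 9 months it was 611 to 756 CPM in high-fat silica rats, against 692 to 939.8 CPM in regular-diet silica rats, and 286 to 374 CPM in high-fat air rats, against 385 to 531 CPM in regular-diet air rats. Marco was at or near 0 at 3 months, with 0 to 5 counts a library. The part of these cells in the clock gene levels was not tested. None of the 4 heart muscle genes tested was called for diet (edgeR; 0 at an unadjusted p below 0.05 and 0 by DESeq2), and with their level as a covariate every diet call above was kept but that of Cry1 in air at 9 months.

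**Figure D3:**
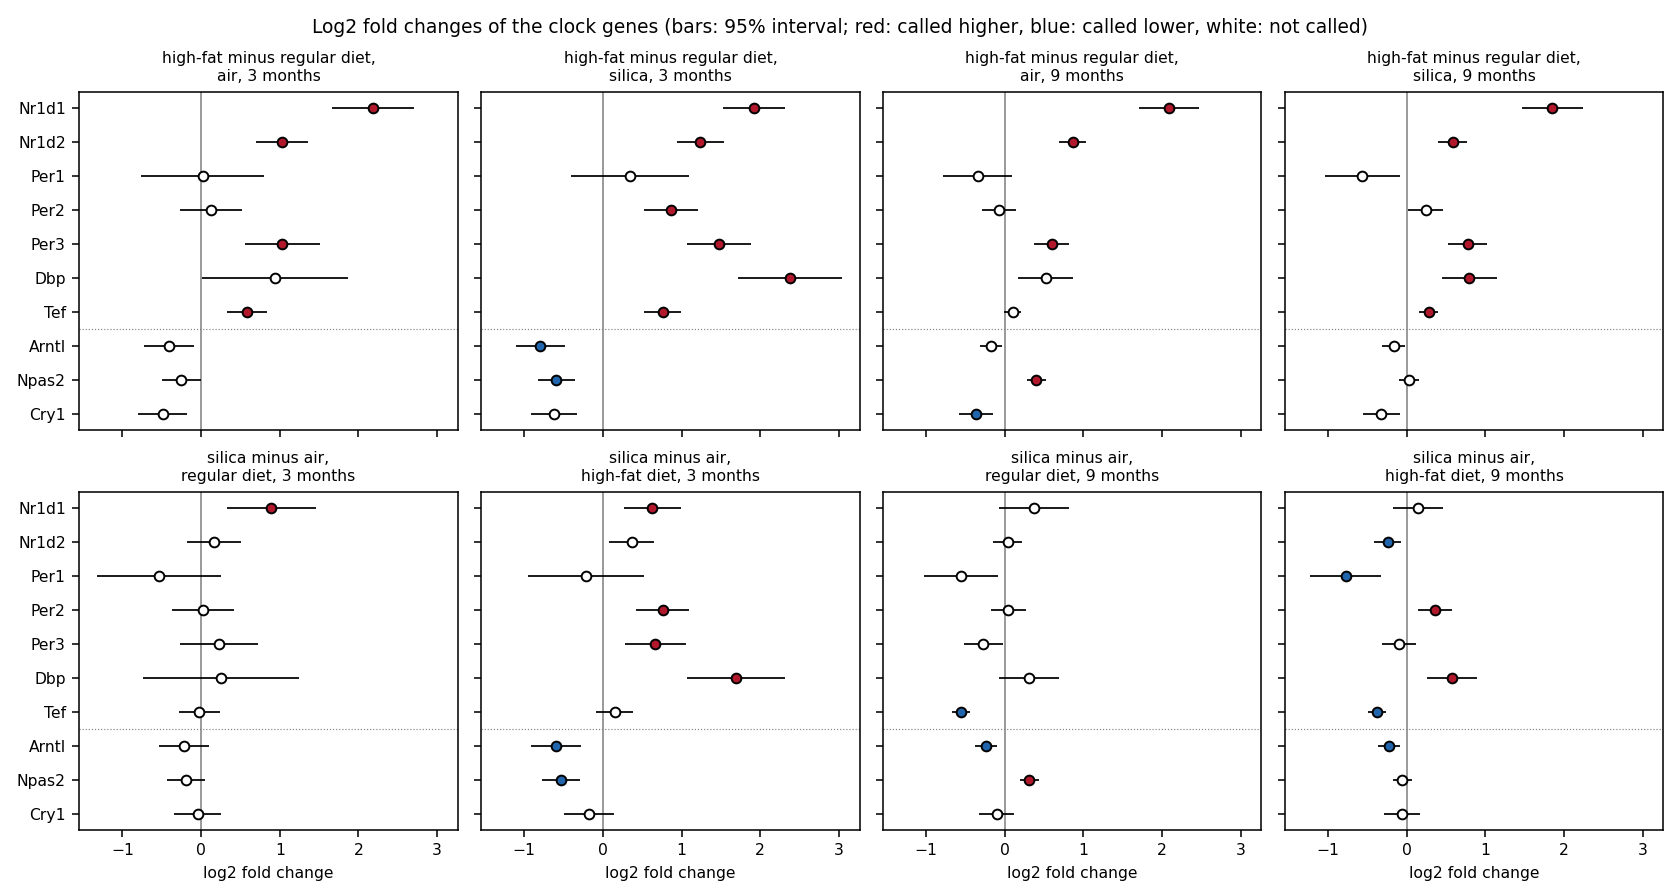
Log2 fold change of each clock gene with an approximate 95% interval, in 4 diet comparisons (high-fat minus regular) and 4 silica comparisons (silica minus air). Red marks genes called higher, blue genes called lower and white genes not called. The interval is the standard error times a normal quantile and is narrower than the test implies. For Dbp with diet in air at 3 months it ran from 0.01 to 1.87 at an unadjusted p of 0.06 (edgeR). Nr1d1 lies between 1.85 and 2.19 in all 4 diet panels, and Arntl and Npas2 are called lower at 3 months in the high-fat silica rats relative to both regular-diet silica rats and high-fat air rats.

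Silica minus air was the second question. On the high-fat diet at 3 months, silica rats had 4 clock genes called higher (9.23% of the 15234 genes) and 2 lower (8.19%). Those were Nr1d1 at 0.63 ± 0.18 (adjusted p = 0.019), Per2 at 0.76 ± 0.17 (adjusted p = 0.0036), Per3 at 0.67 ± 0.20 (adjusted p = 0.022) and Dbp at 1.69 ± 0.32 (adjusted p = 6.4e-04), and Arntl at -0.60 ± 0.16 (adjusted p = 0.012) and Npas2 at -0.54 ± 0.12 (adjusted p = 0.0039). Only Dbp lay above without overlap (7.37% of all genes), and Arntl and Npas2 lay below without overlap (5.51%). Dbp was 16.4, 34.1, 30.5, 79.1 and 21.8 CPM in high-fat silica rats, against 10.9, 15.9, 13.5, 7.31 and 7.87 CPM in high-fat air rats. Arntl was 48.7, 36.9, 46.2, 17.0 and 53.8 CPM in high-fat silica rats, against 60.7, 57.8, 55.2, 69.7 and 66.1 CPM in high-fat air rats. Rat 66 lay farthest out in each of these genes. Without it Nr1d1 was 0.50 (adjusted p = 0.069) and Per3 was 0.45 (adjusted p = 0.086), both no longer called, while Dbp was 1.23 (adjusted p = 2.9e-04), Arntl -0.42 (adjusted p = 0.0029) and Npas2 -0.40 (adjusted p = 0.0021). The Nr1d1 call was also lost with DESeq2, with the ribosomal RNA term and without rat 58, and the Per3 call with that term and without rat 57. All 4 erythroid genes tested (Hbb, Hba1, Hba2 and Alas2) were called lower here, with a summed level of 1791 to 3168 CPM in high-fat silica rats, against 3066 to 4025 CPM in high-fat air rats, and their part was not tested. This comparison uses the same high-fat silica rats as the diet comparison with silica at 3 months, so the pair of results is not independent.

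On the regular diet at 3 months 1 clock gene was called, Nr1d1 higher with silica at 0.89 ± 0.29 (adjusted p = 0.038) (10.2% of all genes were called higher and 6.60% lower). Nr1d1 was 17.9, 18.1, 27.3, 8.70 and 13.0 CPM in regular-diet silica rats, against 14.9, 7.16, 8.24 and 7.67 CPM in regular-diet air rats. The groups overlapped, and the call was lost without rat 40, 41, 42, 44 or 45 and in a fit of these 2 groups alone. Per1 was 98.7, 99.96, 93.5, 127.9 and 76.2 CPM in regular-diet silica rats, against 145, 115.6, 163 and 153 CPM in regular-diet air rats, at -0.54 ± 0.40 (adjusted p = 0.38).

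At 9 months silica rats had lower Tef on both diets. The ribosomal RNA share was higher with silica at that time, without overlap on either diet. Its part in the 9-month silica differences therefore cannot be told apart from silica. Tef ran from 66.3 to 80.8 with a median of 75.1 CPM in high-fat silica rats, against 93.2 to 103 with a median of 95.5 CPM in high-fat air rats, and was 64.8, 50.8, 65.2, 60.0 and 64.9 CPM in regular-diet silica rats, against 86.0 to 95.5 with a median of 88.7 CPM in regular-diet air rats. The groups did not overlap on either diet, and the log2 fold changes were -0.38 ± 0.06 (adjusted p = 4.5e-06) and -0.56 ± 0.06 (adjusted p = 4.4e-08). Arntl was also lower with silica on both diets, at -0.23 ± 0.07 (adjusted p = 0.0089) on the high-fat diet and -0.24 ± 0.07 (adjusted p = 0.0095) on the regular diet. On the high-fat diet 2 genes were called higher (26.7% of the 15276 genes) and 4 lower (24.9%), with Per2 at 0.36 ± 0.11 (adjusted p = 0.0072), Dbp at 0.58 ± 0.16 (adjusted p = 0.0041), Nr1d2 at -0.24 ± 0.09 (adjusted p = 0.024) and Per1 at -0.77 ± 0.23 (adjusted p = 0.0068) beside Tef and Arntl. The Nr1d2 call was lost with the ribosomal RNA term and without the third or the fifth air rat or the first or the sixth silica rat in tag order. Per1 ran from 46.0 to 185 with a median of 78.4 CPM in high-fat silica rats, against 115.9 to 242 with a median of 177 CPM in high-fat air rats, and 2 of the silica rats, the second and the fifth in tag order, lay within the air range. On the regular diet 1 gene was called higher (24.5%) and 2 lower (20.6%), namely Npas2 at 0.31 ± 0.06 (adjusted p = 2.8e-04), and Tef and Arntl as given. Per1 on the regular diet was 157, 171, 148, 124.8 and 168 CPM in silica rats, against 203 to 241 with a median of 229 CPM in air rats, without overlap and at -0.55 ± 0.24 (adjusted p = 0.06). Below without overlap were Per1 and Tef on the regular diet (9.80% of all genes) and Tef on the high-fat diet (12.8%). The 4 of 10 clock genes called lower on the high-fat diet were a larger share than the 24.9% of all genes. The 1 of 10 called higher on the regular diet was a smaller share than the 24.5%. The 2 of 10 called higher on the high-fat diet and the 2 of 10 called lower on the regular diet were nearer the shares of all genes. These shares were compared without a test.

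Silica also went with more RNA of macrophage and neutrophil markers. Of the alveolar macrophage genes tested, 3 of 4 were called higher with silica on each diet at 3 months and 5 of 5 on each diet at 9 months. Of the 4 neutrophil genes tested (S100a8, S100a9, Csf3r and Cxcr2), 2 were called higher with silica on the high-fat diet and 4 on the regular diet at 3 months, and 4 on each diet at 9 months. Their summed level, with Mpo, was 422 to 555 CPM in high-fat silica rats, against 96.6 to 257 CPM in high-fat air rats, and 499 to 778 CPM in regular-diet silica rats, against 129.5 to 179 CPM in regular-diet air rats, at 3 months. At 9 months it was 887 to 1150.4 CPM in high-fat silica rats, against 158 to 282 CPM in high-fat air rats, and 514 to 1366 CPM in regular-diet silica rats, against 102 to 363 CPM in regular-diet air rats. Mpo was at or near 0, with 0 to 3 counts a library.

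Markers of other lung cells changed in both directions with silica. Of 8 lung genes (Sftpc, Sftpb, Sftpa1, Scgb1a1, Ager, Hopx, Aqp5 and Pecam1), 3 were called lower and 2 higher on the high-fat diet and 4 lower and 2 higher on the regular diet at 3 months. At 9 months 5 were lower and 2 higher on the high-fat diet, and 4 lower and 1 higher on the regular diet. Ager and Hopx, both genes of flat alveolar type I cells, and the endothelial gene Pecam1 were lower in all 4 silica comparisons, while the surfactant protein gene Sftpa1 was higher in all 4. Aqp5, Sftpb, Sftpc and Scgb1a1 are only counted above, so the genes named here do not stand for every marker of their cell type. On the regular diet at 9 months Sftpa1 was the only gene of the 8 called higher, so Sftpc and Sftpb were not. At 9 months Pecam1 was -0.56 ± 0.07 (adjusted p = 1.9e-07) on the high-fat diet and -0.48 ± 0.07 (adjusted p = 6.2e-06) on the regular diet, and Sftpa1 was 1.42 ± 0.10 (adjusted p = 4.6e-12) and 1.00 ± 0.10 (adjusted p = 8.7e-09). The summed level of the 8, most of it surfactant RNA, was higher with silica at 9 months, at 29291 to 37474 CPM in high-fat silica rats, against 17861 to 21107 CPM in high-fat air rats, and 27713 to 31364 CPM in regular-diet silica rats, against 18889.7 to 26199 CPM in regular-diet air rats. Of the 4 erythroid genes 3 were lower on the high-fat diet at 9 months, with a summed level of 2038 to 3127 CPM in high-fat silica rats, against 3135 to 4477 CPM in high-fat air rats. Of the 4 heart muscle genes tested 1, Actc1, was lower there, at -1.87 ± 0.74 (adjusted p = 0.038). Of all genes at 9 months, 26.7% were called higher and 24.9% lower on the high-fat diet, and 24.5% and 20.6% on the regular diet. T cell genes were called higher at 9 months, 1 of 4 on the high-fat diet and 3 of 4 on the regular diet. The part of all these cells in the silica differences of the clock genes was not tested.

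Some of the 7 glucocorticoid-induced genes named above also changed with silica. At 9 months on the high-fat diet 4 were called lower (Fkbp5, Tsc22d3, Zbtb16 and Klf9) and Sgk1 higher, with a summed level of 545 to 688 CPM in high-fat silica rats, against 824 to 1079 CPM in high-fat air rats, without overlap. On the regular diet 3 were lower (Tsc22d3, Klf9 and Errfi1) and Sgk1 higher, with 774 to 1042 CPM in regular-diet silica rats, against 800.3 to 1217 CPM in regular-diet air rats, which overlapped. At 3 months 2 (Fkbp5 and Tsc22d3) were lower on the high-fat diet (0 by DESeq2), and none was called on the regular diet (edgeR; 0 at an unadjusted p below 0.05 and 0 by DESeq2). Of all genes, 24.9% were called lower and 26.7% higher on the high-fat diet at 9 months, and 20.6% and 24.5% on the regular diet. On the high-fat diet at 3 months 8.19% of all genes were called lower. The part of glucocorticoid signalling in the lower Per1 level with silica was not tested.

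Whether silica acted differently on the 2 diets was tested as an interaction. At 3 months no gene of the 15234 was called (edgeR; 990 at an unadjusted p below 0.05, 1 gene by DESeq2), and the largest clock gene values were 1.44 ± 0.62 for Dbp (adjusted p = 0.75) and 0.74 ± 0.27 for Per2 (adjusted p = 0.74). At 9 months Npas2 was called, at -0.37 ± 0.09 (adjusted p = 0.042) (0.543% of all genes had a negative call and 0.550% a positive one). Npas2 ran from 54.7 to 68.0 with a median of 57.8 CPM in high-fat silica rats, against 58.5 to 66.1 with a median of 61.4 CPM in high-fat air rats, and was 60.3, 59.6, 56.5, 52.4 and 61.3 CPM in regular-diet silica rats, against 41.1 to 53.1 with a median of 46.0 CPM in regular-diet air rats. The regular-diet air group had the lowest values, and the other 3 groups overlapped one another. That call was lost in 15 of 28 other settings.

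Differences of differences over time were tested in 1 fit of all 8 groups, in which time, age and count table are 1 factor. The silica effect at 9 minus 3 months was called for Npas2 at 0.50 ± 0.14 (adjusted p = 0.022) and Tef at -0.54 ± 0.14 (adjusted p = 0.018) on the regular diet (3.71% of the 15759 genes were positive and 3.07% negative calls). On the high-fat diet it was called for Npas2 at 0.49 ± 0.13 (adjusted p = 0.015), Nr1d2 at -0.61 ± 0.18 (adjusted p = 0.02), Per3 at -0.76 ± 0.24 (adjusted p = 0.03) and Tef at -0.53 ± 0.13 (adjusted p = 0.0075) (6.54% and 4.12%). The diet effect at 9 minus 3 months was called in air for Npas2 at 0.65 ± 0.14 (adjusted p = 0.0038) and Tef at -0.48 ± 0.14 (adjusted p = 0.032) (2.53% and 2.67%). With silica no gene of all tested was called for it (edgeR; 1131 at an unadjusted p below 0.05, 7 genes by DESeq2, Npas2 among them), and Nr1d1 was -0.07 ± 0.31 (adjusted p = 0.98) and Dbp -1.59 ± 0.43 (adjusted p = 0.32). Without rat 66 the high-fat calls of Nr1d2 and Per3 were lost, and that of Per3 also without rat 57, without the sixth high-fat silica rat of 9 months and with either covariate. The regular-diet and air calls were lost with the ribosomal RNA term, that of Npas2 on the regular diet also without rat 42 or 47, and that of Tef in air also without rat 40, 42 or 52.

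Rat by rat, the mean log2 CPM of the 7 repressor and output genes was set against that of the 3 opposing genes. The difference of the 2 means depends on the gene lengths, so its zero has no meaning of its own and only differences between rats can be read. At 3 months it ran from 0.97 to 3.24 with a median of 1.43 in high-fat silica rats, from 0.11 to 1.20 with a median of 0.73 in high-fat air rats, from -0.53 to 0.10 with a median of -0.19 in regular-diet silica rats and from -0.61 to -0.33 with a median of -0.47 in regular-diet air rats. All 10 high-fat rats were above all 9 regular-diet rats, though the margin between rat 57 (high-fat air) and rat 44 (regular silica) was small. Rat 66 was the highest, with rat 63 next at 1.997. At 9 months it ran from -0.40 to 0.93 with a median of 0.41 in high-fat silica rats, from -0.07 to 0.47 with a median of 0.31 in high-fat air rats, from -0.53 to -0.10 with a median of -0.41 in regular-diet silica rats and from -0.66 to 0.01 with a median of -0.28 in regular-diet air rats. At that time the diets overlapped, and the sixth high-fat silica rat in tag order lay among the regular-diet rats. The first high-fat silica rat (0.0095) and the fourth high-fat air rat (-0.07) also lay below the highest regular-diet rat (0.0117). No test is given for this score, since its members were chosen with the diet differences known.

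**Figure D4:**
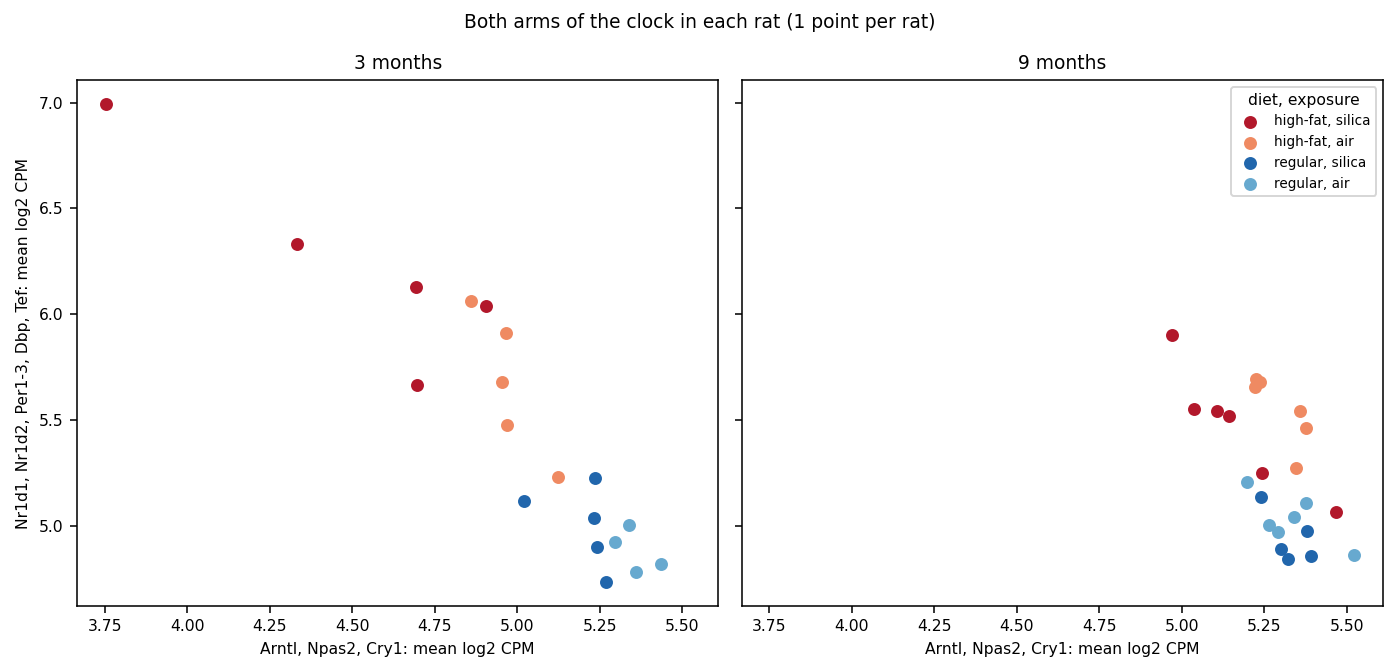
Each rat's mean log2 CPM of Nr1d1, Nr1d2, Per1, Per2, Per3, Dbp and Tef (vertical axis) against its mean log2 CPM of Arntl, Npas2 and Cry1 (horizontal axis), at 3 months and at 9 months, with 1 point per rat coloured by group. At 3 months the high-fat silica rats reach the upper left, with rat 66 at 6.99 and 3.75, and the regular-diet rats lie at the lower right.

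To look below the group differences, each gene's deviation from its group mean (log2 CPM) was correlated with that of Arntl over the rats of a time point. The 9 other genes at 2 time points gave 18 relations, tested by permuting rats within groups (100000 permutations, two-sided) and adjusted over the 18. At 3 months (19 rats) Npas2 moved with Arntl, with r = 0.93 (p = 0.002, adjusted p = 0.018) and rho = 0.66 (p = 0.0098, adjusted p = 0.044). Tef moved against it, with r = -0.82 (p = 0.0046, adjusted p = 0.019) and rho = -0.66 (p = 0.0063, adjusted p = 0.038), as did Nr1d2, with r = -0.66 (p = 0.0038, adjusted p = 0.019) and rho = -0.69 (p = 0.0026, adjusted p = 0.037). For Per2 the values were r = -0.72 (p = 0.0052, adjusted p = 0.019) and rho = -0.57 (p = 0.03, adjusted p = 0.06), and for Dbp r = -0.79 (p = 0.0091, adjusted p = 0.023) and rho = -0.56 (p = 0.032, adjusted p = 0.06), where the rank correlation missed the adjusted threshold. Without rats 66 and 67, the farthest from the median of Arntl, r and its permutation p were 0.59 (p = 0.036) for Npas2, -0.49 (p = 0.049) for Tef, -0.48 (p = 0.032) for Nr1d2, -0.58 (p = 0.028) for Per2 and -0.55 (p = 0.054) for Dbp. The deviations were still taken from group means that included these 2 rats, so the rats were not fully removed. How far the relations hold without them is therefore not shown. In these values all 5 r were closer to 0, and their signs did not change. Per3, Per1 and Nr1d1 had negative r of -0.62, -0.54 and -0.35 and Cry1 a positive r of 0.48, none past the adjusted threshold.

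At 9 months (23 rats) Per3 moved against Arntl, with r = -0.72 (p = 0.001, adjusted p = 0.018) and rho = -0.64 (p = 0.0041, adjusted p = 0.037), and without the fifth and the sixth high-fat silica rats, the farthest from the median of Arntl, r and its permutation p were -0.57 (p = 0.015). For Per1 the values were r = -0.71 (p = 0.007, adjusted p = 0.021) and rho = -0.46 (p = 0.06, adjusted p = 0.09), and without those rats r and its permutation p were -0.46 (p = 0.10), a value of r nearer 0 with the same sign. Here too the group means still included the rats left out, so those rats were not fully removed. Of the other 7 genes, 5 had a negative r between -0.55 and -0.11 (Nr1d1, Nr1d2, Per2, Dbp and Tef), Npas2 had r = 0.48 and Cry1 r = 0.47, none past the adjusted threshold.

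**Figure D5:**
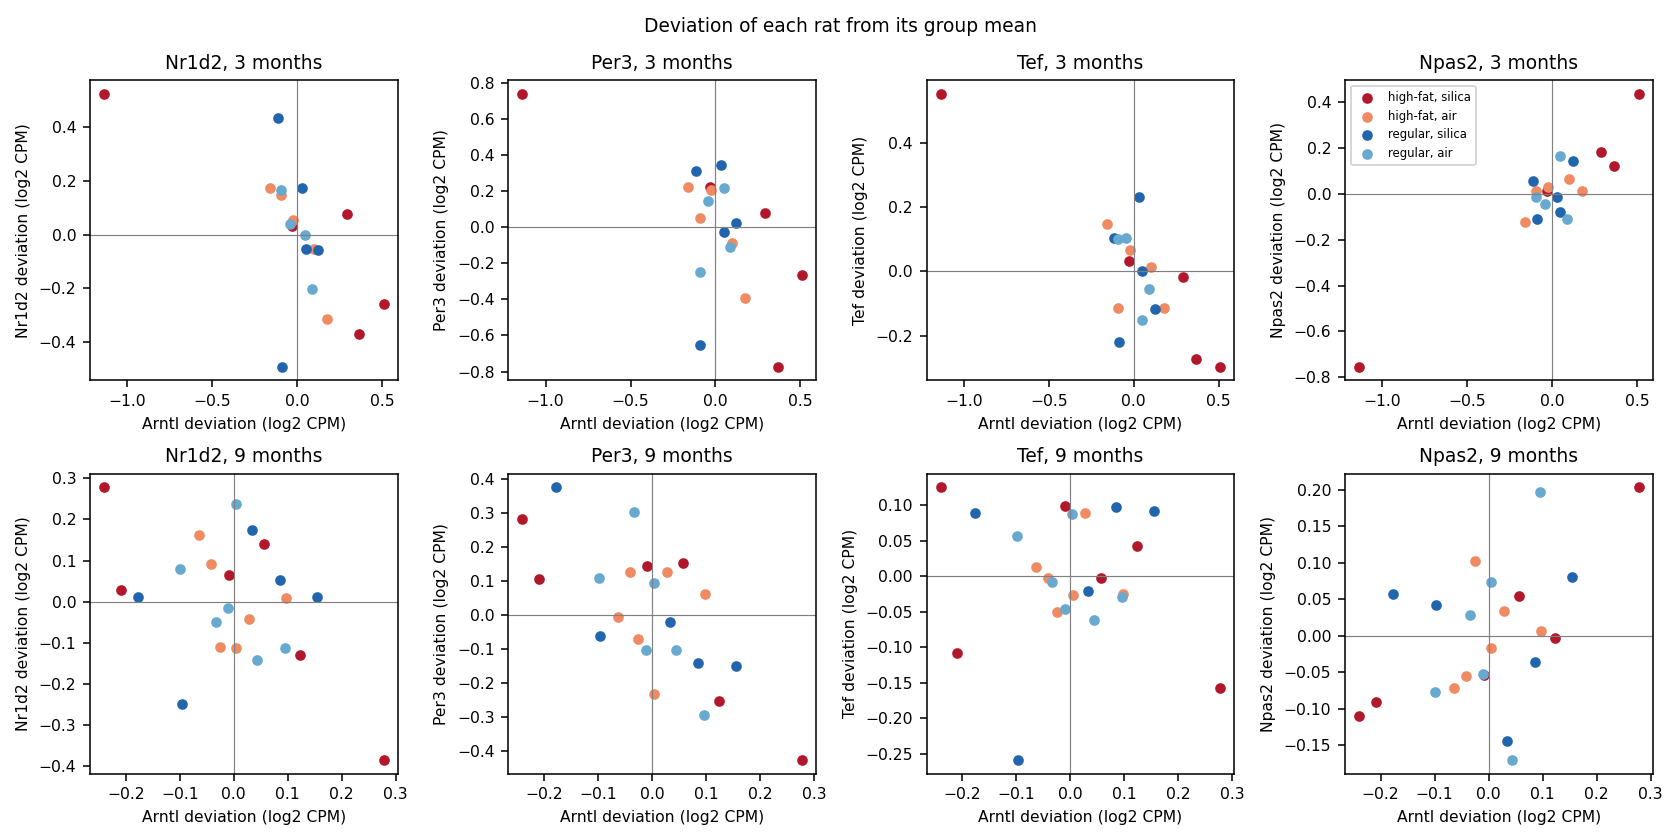
Deviation from the group mean in log2 CPM of Nr1d2, Per3, Tef and Npas2 (vertical axes) against that of Arntl (horizontal axis), with 1 point per rat, at 3 and 9 months. At 3 months Npas2 follows Arntl (r = 0.93) and Tef runs against it (r = -0.82), with rat 66 at the far left.

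Other genes of the clock were taken from a list of 22, of which 19 were in both tables (Hlf, Fbxl21 and Noct were not found under these symbols) and 17 at 3 months and 18 at 9 months were tested. Few of them were called for diet. At 3 months 1 of 17 was called higher with silica (0.295% of all genes) and 1 of 17 in air (1.65%). In air at 9 months 2 of 18 were called higher (8.16%) and 1 lower (7.07%). Called were Cry2, the second cryptochrome, with silica at 3 months at 0.61 ± 0.07 (adjusted p = 1.1e-04), and Csnk1e, a kinase of PER proteins, in air at 0.28 ± 0.06 (adjusted p = 0.019). In air at 9 months Cry2 was higher at 0.29 ± 0.08 (adjusted p = 0.014), as was Btrc, a subunit of a ubiquitin ligase of PER, at 0.20 ± 0.06 (adjusted p = 0.037), and Bhlhe41 (DEC2, a repressor of E-box genes) was lower at -0.67 ± 0.11 (adjusted p = 2.0e-04). With silica at 9 months none of the 18 was called for diet (edgeR; 4 higher and 3 lower at an unadjusted p below 0.05, and 1 by DESeq2). The list's median diet log2 fold change was 0.04 with silica and 0.01 in air at 3 months, and -0.04 and -0.0016 at 9 months.

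With silica more of the list was called, as was more of the whole table. On the high-fat diet 3 of 17 were higher and 4 lower at 3 months (9.23% and 8.19% of all genes), and 5 of 18 higher and 8 lower at 9 months (26.7% and 24.9%). On the regular diet 2 of 17 were higher and 2 lower at 3 months (10.2% and 6.60%), and 4 of 18 higher and 6 lower at 9 months (24.5% and 20.6%). The shares called higher at 9 months were thus near those of all genes. Those called lower at 9 months, 8 of 18 and 6 of 18, were larger than the 24.9% and 20.6% of all genes, without a test. Bhlhe41 and its relative Bhlhe40 (DEC1) were called higher in all 4 silica comparisons. Most alveolar macrophage genes were also called higher there, as given above, and the part of these cells in both genes was not tested. Bhlhe41 was 81.4 ± 8.81 CPM in high-fat silica rats, against 21.8 ± 1.84 CPM in high-fat air rats, and 88.8 ± 11.9 CPM in regular-diet silica rats, against 34.7 ± 6.81 CPM in regular-diet air rats at 9 months (SD, n = 6, 6, 5 and 6). Its log2 fold changes were 1.91 ± 0.11 (adjusted p = 1.4e-13) and 1.36 ± 0.11 (adjusted p = 1.4e-10). Clock itself, the main partner of BMAL1, was lower with silica in all 4 comparisons, at -0.24 ± 0.04 (adjusted p = 4.7e-04) and -0.14 ± 0.05 (adjusted p = 0.037) on the high-fat and regular diets at 3 months and -0.28 ± 0.04 (adjusted p = 3.7e-06) and -0.16 ± 0.04 (adjusted p = 0.0031) at 9 months.

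Across all 42 rats, deviations from group means were correlated with those of Nr1d1 for 12495 genes tested in both tables with a mean log2 CPM of at least 1, as a description. The highest r values were those of Nr1d2 (0.69) and Per3 (0.61), and Tef ranked 8 (0.55). Among the other genes Mef2d (0.60), Zfp467 (0.59), Atxn2l (0.59), Plxnb1 (0.56), Bcl9l (0.55) and Porcn (0.54) were most like Nr1d1. At the low end stood Rexo4 (-0.57), Agpat5 (-0.55), Hnrnpf (-0.55), Ccrl2 (-0.53), Anapc16 (-0.53) and Tmem29 (-0.52). Dbp ranked 104, Per2 626 and Per1 885 from the top, and Npas2 11253, Arntl 12235 and Cry1 12487. These rats share libraries across all genes, so the values also carry differences in library composition.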

How the data were processed

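The authors deposited 1 table of raw read counts per gene symbol for each time point, with 1 column per rat (19 and 23 rats). Per the labels' protocols, total RNA was depleted of ribosomal RNA and made into stranded libraries. The submitters' processing notes name Rnor_6.0, the counter HTSeq 0.6.1, the aligners TopHat2 2.0.9 and Bowtie2 2.2.9, the trimmer Trimmomatic 0.35, and SAMtools 0.1.19 and bcl2fastq 2.19, and the strand setting of the counting is not given in the sources used here. Groups came from the labels, which give no batch, and animal tags are unique, so no pairs exist.

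The members and gene lists were chosen with earlier results of these data known. Named were all 10 members, up to 4 called genes of the other clock genes per comparison with the smallest p, and the 6 genes most and least like Nr1d1. The fits used edgeR 4.0.16 in R 4.3.3 on counts (filterByExpr, TMM, quasi-likelihood with legacy=FALSE, 1 coefficient per group, 14 comparisons), with Benjamini-Hochberg adjustment over all genes tested and calls below 0.05. The test was tried on simulated counts. Log2 CPM for levels per rat used a prior count of 2, and printed CPM values used none. Alternatives were RLE size factors, no filter, DESeq2 1.42.0, a ribosomal RNA covariate, a fit of only the groups compared, leaving out each rat, and a heart muscle gene covariate chosen after seeing the data. Correlations and figures used Python 3.11.15 with scipy 1.17.1 and matplotlib 3.10.9.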

Additional observations from a re-analysis of the deposited data

Results flagged for a closer look

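In 4 of 80 gene and group sets of 4 to 6 rats, 1 rat lay far from the others in log2 CPM, where chance flags about 1 in 20. The gap to the nearest rat divided by the range was 0.7101 for Npas2 in high-fat air rats at 3 months (rat 52, lowest) and 0.905 for Cry1 in regular-diet air rats at 3 months (rat 38, lowest). In regular-diet silica rats at 9 months the first rat in tag order was the highest for Per3 (0.753) and for Dbp (0.719).

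Some effects differed between groups by a test of the difference itself. The silica effect on Npas2 at 9 months was lower on the high-fat than on the regular diet by a log2 difference of -0.37. The silica effect at 9 minus 3 months was -0.61 for Nr1d2, -0.76 for Per3, -0.53 for Tef and 0.49 for Npas2 on the high-fat diet. On the regular diet it was -0.54 for Tef and 0.50 for Npas2. The diet effect in air at 9 minus 3 months was -0.48 for Tef and 0.65 for Npas2.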

How the results depend on the processing

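Over 10 genes, 14 comparisons and their settings, 2812 of 2920 values kept their side of the threshold, 80 lost a call, 28 gained one and 0 reversed. Another 65 values, not called in either fit, changed sign. No paired analysis was possible because animal tags are not shared between groups. When the ribosomal RNA share entered the model, the count of clock genes called fell to 0 for diet in air (5 in the fit without it) and with silica (5) at 9 months, for the interaction at 9 months (1), for the silica effect at 9 minus 3 months on the regular diet (2) and for the diet effect at 9 minus 3 months in air (2). The log2 fold changes of the lost 9-month diet calls in that fit were, with silica, 1.68 (Nr1d1), 0.66 (Nr1d2), 1.04 (Per3), 1.30 (Dbp) and 0.19 (Tef), and in air 1.88 (Nr1d1), 0.95 (Nr1d2), 0.92 (Per3), 0.41 (Npas2) and -0.37 (Cry1). All but those of Nr1d1, Tef and Cry1 were larger than without the covariate. The interaction at 9 months was also 0 without the filter on low counts. A fit of only the groups compared called 2 genes (Per1 and Arntl, lower) at 3 months for regular-diet silica minus air, against 1, and DESeq2 called 1 for the diet effect at 9 minus 3 months with silica, against 0. The cause of these moves was not tested. Leaving out 1 rat gave, for silica, 4 to 7 genes (high-fat) and 0 to 1 (regular) at 3 months, and 5 to 6 and 3 to 4 at 9 months. For diet it gave 5 to 9 (silica; 5 without rat 63) and 2 to 4 (air; 2 without rat 40, 42 or 52) at 3 months, and 5 to 6 and 4 to 6 at 9 months. For the interactions it gave 0 to 0 and 0 to 1, for silica over time 2 to 5 (high-fat) and 1 to 2 (regular), and for diet over time 0 to 1 (silica) and 1 to 2 (air).

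Counts over all genes moved by more than 1.5 times in several settings. For diet in air at 3 months 449 genes became 721 with DESeq2, 761 with only the groups compared and 92 with the ribosomal covariate. For diet with silica at 3 months 107 became 221 with DESeq2, 201 with the heart covariate, which was chosen after seeing the data, and 59 with only the groups compared. With the ribosomal covariate, diet at 9 months gave 1 gene in air, against 2327, and 1 with silica, against 537. Regular-diet silica minus air at 9 months gave 4559, against 6886. Silica over time on the regular diet gave 284 with that covariate and 471 with only the groups compared, against 1068, and diet over time in air gave 0 with the covariate, against 819. DESeq2 gave 343 for the interaction at 9 months, against 167. The lowest counts of a rat were 23 for Dbp, 32 for Nr1d1 in a regular-diet air rat and 40 for Cry1, which limits the precision of these genes.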
